A study of Mus musculus with 9 samples.

Results

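The genes described here are 10 members of the tumor necrosis factor (TNF) and NF-κB circuit, namely Tnf, Traf1, Tnip1, Tnip3, Tnfaip3, Nfkbia, Nfkb1, Nfkb2, Relb and Birc3. They were chosen with earlier results of these data known. They were taken by symbol from a table of 24607 genes, all 10 were found there, and all 10 passed the filter on low values. The table covers macrophages grown from bone marrow of CX3CR1-gfp/+ mice, in which 1 copy of the fractalkine receptor gene carries green fluorescent protein, and this allele is shared by every group. After differentiation in 50 ng/ml of the macrophage growth factor M-CSF, the cells shared a dish with neurons taken from dorsal root ganglia (DRG co-culture), received 0.02 ng/ml TGF-β, or stayed alone (monoculture). Each group has 3 libraries, carries a time label of 5 days and was sorted by CD11b and CD64. The design text gives 3 mice as the origin of the triplicates, and neither the age of the mice nor whether the same animals served every group is stated. The labels also do not give the genotype of the neurons or the other cells in their cultures. If the 3 libraries of a group were not separate cultures, the p-values measure technical spread in part.

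TNF is a cytokine that macrophages release soon after an inflammatory stimulus. TNF receptors and Toll-like receptors activate the IκB kinase complex, which marks the inhibitor IκBα for destruction and frees NF-κB dimers to enter the nucleus. The dimers then switch on Tnf itself together with genes that end the signal, so the mRNA of these feedback genes is often read as a trace of recent NF-κB activity. Among them, Nfkbia encodes IκBα, and Tnfaip3 encodes the ubiquitin-editing enzyme A20. Tnip1 and Tnip3 encode ubiquitin-binding partners of A20, known as ABIN-1 and ABIN-3. Traf1 encodes a receptor adaptor and Birc3 the ubiquitin ligase cIAP2. Nfkb1 and Nfkb2 encode the precursors p105 and p100, which give p50 and p52, and Relb encodes the partner of p52 in the non-canonical pathway.

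Reads assigned to genes were 46831914 to 308777042 per library, highest in co-culture 1, if the smallest value of a library is 1 read. On that scale, 1 read was worth 0.346 to 2.27 normalized counts, the unit of every level given here. All 7 macrophage markers were present, and between co-culture and monoculture 4 were not called (Csf1r, Itgam, Fcgr1 and Cd68), 1 was higher and 2 were lower. The M-CSF receptor gene Csf1r was at 86325 ± 6960.3 normalized counts in co-culture, 85038 ± 7293 in TGF-β cultures and 82746 ± 4915 in monoculture (mean ± SD, n = 3 each, as for every mean below). The efferocytosis receptor gene Mertk was at 15848 ± 2561 in co-culture and 3034 ± 28.1 in monoculture (higher). Emr1, the gene of F4/80, was at 55229 ± 6515 in co-culture and 89055 ± 11111 in monoculture, and the endotoxin co-receptor gene Cd14 at 12269 ± 4085 in co-culture and 25539 ± 845 in monoculture (both lower). The summed level of 9 fibroblast markers ranged over 6286 to 9012 in co-culture, 21.0 to 101 in TGF-β cultures and 34.1 to 106 in monoculture. No test of these markers is given, since several passed the filter on low values only through co-culture. The sum of 8 Schwann cell and satellite glia markers was 4644 to 5138 in co-culture and 6050.2 to 6932 in monoculture. The glial transcription factor gene Sox10 had 122, 101 and 217 in co-culture and at most 1 read in any other library. The summed level of 7 sensory neuron markers was 102 to 170.1 in co-culture and 19.6 to 74.7 in monoculture. Most of the co-culture sum was Tubb3, at 92.4 ± 8.03 in co-culture and 27.0 ± 24.9 in monoculture. Each of the others averaged at most 14.3 in co-culture, and Scn10a alone averaged higher in monoculture (3.65 against 1.89). The 4 endothelial markers measured summed to 1603 to 2165 in co-culture and 1996 to 2452 in monoculture, and they did not move together. Kdr, most of the sum, was lower in co-culture, at 1376 ± 215 against 2052 ± 224 in monoculture. Pecam1 was higher, at 299 ± 61.7 in co-culture and 41.0 ± 18.7 in monoculture. Cdh5 was also higher, at 227 ± 27.9 in co-culture and 101 ± 16.7 in monoculture. The 6 neutrophil markers measured summed to 1044 to 1639 in co-culture and 469.6 to 579.6 in monoculture. Most of it was Csf3r, at 1221 ± 324 in co-culture and 507 ± 56.2 in monoculture, where its lowest library had 444. S100a8 averaged 46.5 in co-culture and 31.5 in monoculture. S100a9, Mpo, Elane and Cxcr2 each averaged at most 5.91 in co-culture, and of these Cxcr2 alone averaged higher in monoculture (1.88). The part of these cells, and of the shifts in macrophage markers, in the results below was not tested. In such bulk libraries, fewer cells with a transcript and less transcript per cell cannot be told apart.

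The 10 genes split into a steep and a shallow group in co-culture. Tnip3 and Traf1 stood at 8.24% and 8.87% of their monoculture means. The other 8 genes stood between 58.7% (Tnf) and 94.7% (Nfkb1). In all, 7 of the 10 fell, 0 rose and 3 did not pass the test, while 15.0% of all 16328 tested genes were called lower and 15.9% higher (limma, adjusted p under 0.05 over all genes). The count of 0 higher was the same at an unadjusted p under 0.05 and with edgeR and DESeq2. The median log2 fold change of the 10 was -0.40, beside 0.03 over all tested genes. Since the 10 were chosen with earlier results of these data known, these comparisons are a description and not independent support. With TGF-β alone, 1 of the 10 (Tnip3) fell and 9 did not pass, beside 1.39% of all tested genes called lower and 1.13% higher. That Tnip3 call was near the threshold and was lost in 8 of 18 alternative runs.

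Tnip3, the gene of ABIN-3, showed the largest change of the 10. It had 1266, 1178 and 1743 normalized counts in co-culture, 12496, 12016 and 11701 with TGF-β and 16831, 16979 and 16996 in monoculture. The 3 groups formed 3 separate levels, with no overlap between any groups and a coefficient of variation of 0.535% among the monoculture libraries. The log2 fold change of co-culture over monoculture was -3.61 ± 0.12 (estimate ± SE of the fit; adjusted p = 7.33e-11 by limma), which ranked 39 from the lowest of 16328 genes. Traf1, whose product binds TNF receptor 2 together with TRAF2, had 91.5, 88.3 and 121 normalized counts in co-culture, 761, 723 and 920.4 with TGF-β and 1283, 904 and 1205 in monoculture. Every co-culture library was below every other library, while the TGF-β and monoculture libraries overlapped. Its log2 fold change in co-culture against monoculture was -3.37 ± 0.18 (adjusted p = 5.50e-09), which ranked 45 from the lowest. Further values of the form estimate ± SE are log2 fold changes from the same fit.

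Tnf, the ligand of the circuit, had 2651, 3107 and 2829 normalized counts in co-culture, 4395, 5832 and 3920.1 with TGF-β and 4584, 5576 and 4468 in monoculture. The co-culture libraries were all below the others, and TGF-β 2 and monoculture 2 were the highest of their groups. Tnf fell to 2862 ± 229.8 in co-culture, against 4876 ± 609 in monoculture (log2 fold change -0.76 ± 0.14, adjusted p = 6.78e-04). Its fall was thus much smaller than those of Tnip3 and Traf1, with a 95% interval of -1.05 to -0.47 that does not reach the intervals of Tnip3 (-3.86 to -3.36) and Traf1 (-3.75 to -2.99).

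**Figure D1:**
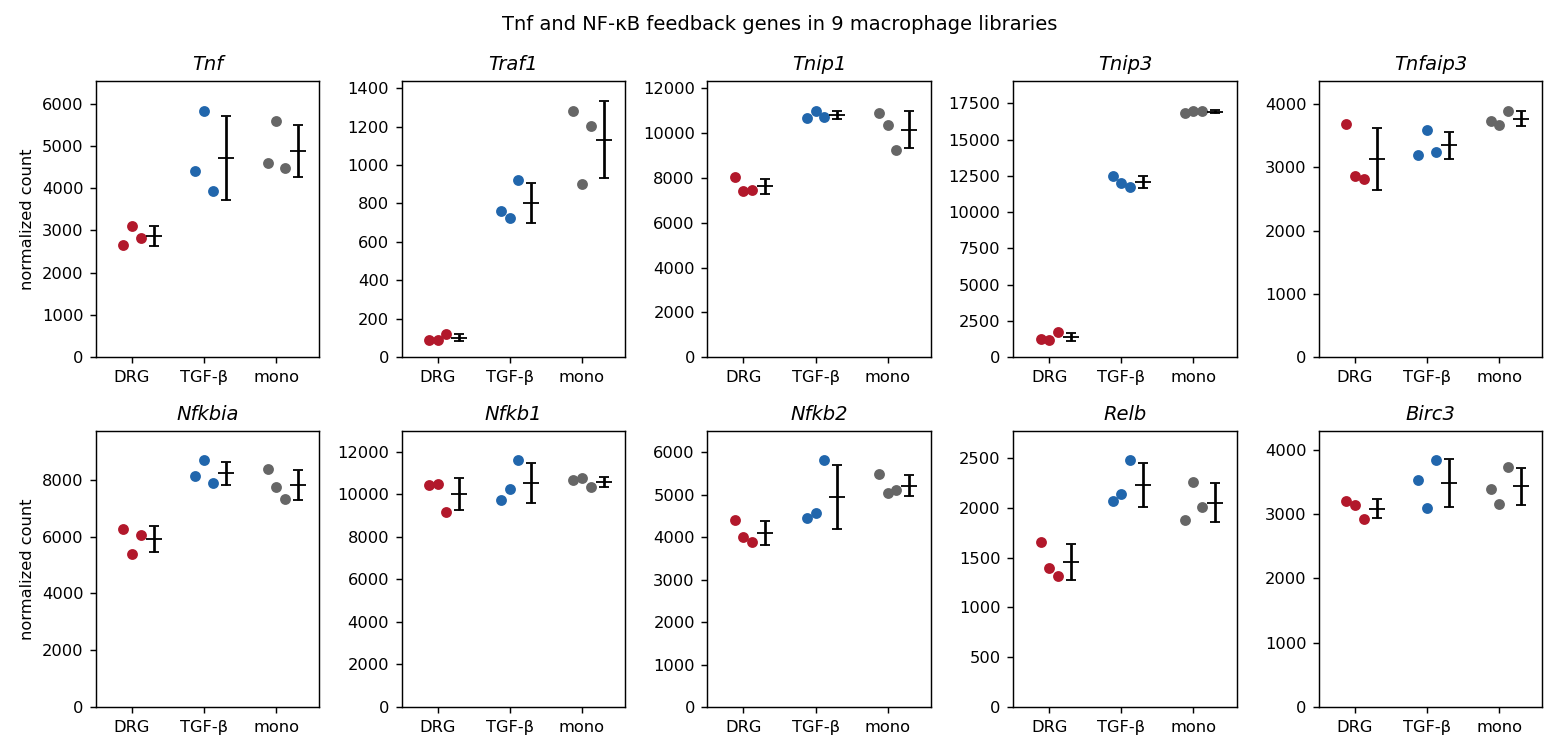
Normalized counts (y axis, linear and starting at 0) of the 10 genes in macrophages co-cultured with DRG neurons, treated with TGF-β, or alone. Points are the 3 libraries of a group in replicate order, and the bar beside them is the mean ± SD. Tnip3 lies between 1178 and 1743 in co-culture, against 16831 to 16996 in monoculture, Traf1 shows a like gap, and Nfkb1 and Birc3 overlap between the groups.

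Among the inhibitors that hold NF-κB in check, the falls in co-culture were modest. Nfkbia, the gene of IκBα, had 6268, 5406 and 6079 normalized counts in co-culture, 8132, 8697 and 7906 with TGF-β and 8377, 7747 and 7319 in monoculture. No co-culture library reached the lowest monoculture library. It fell to 5917 ± 453 in co-culture, against 7814 ± 532 in monoculture (-0.40 ± 0.08, adjusted p = 0.00219). Tnip1, the gene of ABIN-1, had 8022, 7429 and 7451 normalized counts in co-culture, 10657, 10998 and 10717 with TGF-β and 10890.2, 10341 and 9233 in monoculture. Again the co-culture libraries lay below both other groups, and the log2 fold change against monoculture was -0.41 ± 0.08, adjusted p = 0.00123. Tnfaip3, the gene of A20, had 3695, 2869 and 2822 normalized counts in co-culture, 3203, 3592 and 3252 with TGF-β and 3741, 3674 and 3898 in monoculture. Co-culture 1 lay within the monoculture range and the other 2 co-culture libraries below it, and the gene did not pass the test (-0.28 ± 0.10, adjusted p = 0.0567, 95% interval -0.50 to -0.06). Without co-culture 1 it passed (-0.40, adjusted p = 0.00704), and with TMM scaling too (-0.29, adjusted p = 0.0483).

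The NF-κB subunits differed from each other. Relb, partner of p52, had 1655, 1396 and 1316 normalized counts in co-culture, 2066, 2141 and 2477 with TGF-β and 1880.2, 2264 and 2008 in monoculture. The co-culture libraries were the 3 lowest, and Relb fell by 0.49 ± 0.11 on the log2 scale against monoculture (adjusted p = 0.00421). Nfkb2, the gene of p100, had 4413, 4004 and 3882 normalized counts in co-culture, 4454, 4580.2 and 5815 with TGF-β and 5503, 5038 and 5114 in monoculture. Here the co-culture libraries were again the 3 lowest but TGF-β 1 came close to co-culture 1, and the change against monoculture was -0.35 ± 0.10, adjusted p = 0.0183. Its call was lost without monoculture 1, co-culture 2 or co-culture 3 (adjusted p = 0.0673, 0.0632 and 0.067). Nfkb2 shares 531 exonic bases with AC114539.1 and 299 with Psd, both on the opposite strand, and the use of strand in the authors' counting is not stated. Nfkb1, the gene of p105, had 10444, 10497 and 9150.0 normalized counts in co-culture, 9749.6, 10264 and 11603 with TGF-β and 10659.6, 10785 and 10338 in monoculture. The groups overlapped throughout, and Nfkb1 did not pass the test (-0.08 ± 0.09, adjusted p = 0.529, 95% interval -0.27 to 0.10). Birc3, the cIAP2 ligase that NF-κB induces, had 3194, 3137 and 2923 normalized counts in co-culture, 3527, 3092 and 3834 with TGF-β and 3394, 3156 and 3735 in monoculture. All 3 groups overlapped, and it did not pass either (-0.15 ± 0.10, adjusted p = 0.283, 95% interval -0.36 to 0.06).

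**Figure D2:**
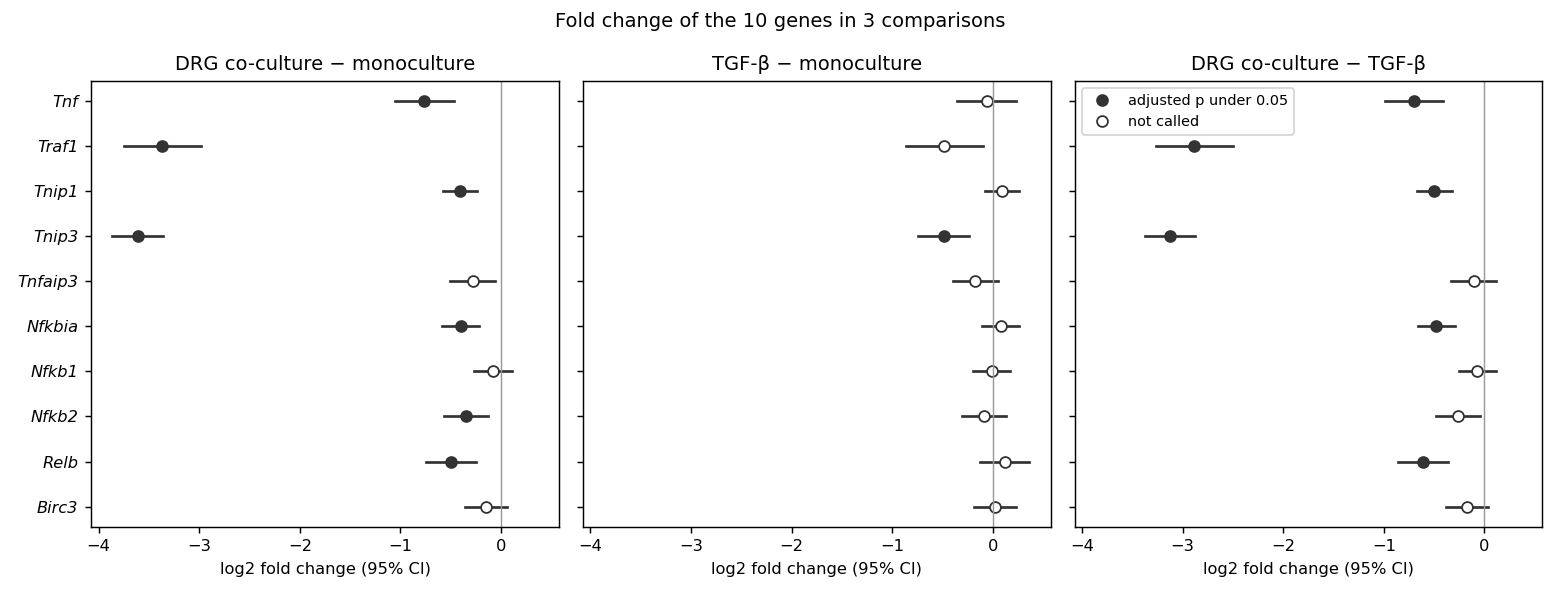
Log2 fold change (x axis) of the 10 genes for 3 contrasts, co-culture over monoculture (left), TGF-β over monoculture (middle) and co-culture over TGF-β (right), from limma on log2 of the normalized count plus 10. Lines are 95% intervals, filled points passed at adjusted p under 0.05 and open points did not. Tnip3 and Traf1 lie near -3.61 and -3.37 in the left panel, far from the other 8, and in the middle panel all 10 lie between -0.49 and 0.12.

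Promoter sequences are shown for the steep members Tnip3 and Traf1, the shallow members Tnip1 and Nfkbia, and Tnfaip3, which was not called, so that they can be compared by their NF-κB motifs. RefSeq windows (GRCm38.p6) from 250 bases before to 50 bases after the start were on hand for 8 of the 10 genes, as 11 windows, read 5′ to 3′ along the gene. Capitals mark matches to the kappaB consensus motif, a 10-base site, on either strand.
Tnip3, chr6:65590148-65590447, plus strand: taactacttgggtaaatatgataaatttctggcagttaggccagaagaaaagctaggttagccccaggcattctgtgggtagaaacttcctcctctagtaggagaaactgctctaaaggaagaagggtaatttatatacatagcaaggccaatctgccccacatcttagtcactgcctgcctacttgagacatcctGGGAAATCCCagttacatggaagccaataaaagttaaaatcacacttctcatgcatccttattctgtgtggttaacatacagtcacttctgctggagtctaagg
Traf1, chr2:34961723-34962022, minus strand: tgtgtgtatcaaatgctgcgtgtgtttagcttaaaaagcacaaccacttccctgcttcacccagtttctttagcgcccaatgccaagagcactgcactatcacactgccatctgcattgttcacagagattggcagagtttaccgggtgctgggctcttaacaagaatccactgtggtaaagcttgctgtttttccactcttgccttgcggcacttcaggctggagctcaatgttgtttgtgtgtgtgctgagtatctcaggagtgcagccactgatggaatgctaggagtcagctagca
Tnip1, chr11:54962891-54963190, minus strand: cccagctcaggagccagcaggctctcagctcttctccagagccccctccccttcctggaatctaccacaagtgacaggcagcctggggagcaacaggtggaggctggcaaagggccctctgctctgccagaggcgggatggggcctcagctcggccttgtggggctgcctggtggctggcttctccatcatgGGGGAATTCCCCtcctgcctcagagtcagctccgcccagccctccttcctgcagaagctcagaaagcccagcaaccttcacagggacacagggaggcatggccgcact
Nfkbia, chr12:55492598-55492897, minus strand: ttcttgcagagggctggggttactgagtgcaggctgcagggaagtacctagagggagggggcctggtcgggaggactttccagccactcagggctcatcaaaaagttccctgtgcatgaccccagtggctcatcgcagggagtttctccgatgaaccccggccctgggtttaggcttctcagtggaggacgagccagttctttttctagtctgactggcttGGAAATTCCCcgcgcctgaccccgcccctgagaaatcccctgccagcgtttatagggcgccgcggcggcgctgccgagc
Tnfaip3, chr10:19015361-19015660, minus strand: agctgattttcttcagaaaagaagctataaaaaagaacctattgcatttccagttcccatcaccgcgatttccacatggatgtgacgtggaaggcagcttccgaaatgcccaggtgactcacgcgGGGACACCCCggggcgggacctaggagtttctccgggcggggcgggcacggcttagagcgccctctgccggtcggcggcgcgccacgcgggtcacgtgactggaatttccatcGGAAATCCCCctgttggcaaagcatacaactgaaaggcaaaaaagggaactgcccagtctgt

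The kappaB consensus was found in 7 of the 11 windows, of 5 of the 8 genes (Tnip1, Tnip3, Tnfaip3, Nfkbia and Nfkb2), and in 4.51% of all 32851 mouse promoter windows of that length. The windows of Tnf, Traf1 and Birc3 held none, which says only that these letters are not in this stretch. Of the steep members, Tnip3 held a match and Traf1 held none. So few genes and so short a window cannot show whether steep and shallow members differ in this motif. Tnip3 holds 1 match, GGGAAATCCC, starting 54 bases before its start, and Nfkbia, with a far smaller fall, holds 1 at 29 bases before. Tnip1 carries the block GGGGAATTCCCC, in which overlapping matches on both strands were counted as 1. In the Tnfaip3 window shown, matches began 125 and 12 bases before the start, and the second Tnfaip3 window held none. The 3 overlapping or neighboring windows of Nfkb2 held 2, 2 and 1 matches. The match of the last window, GGGACTTTCC, is a site that the window before it also holds, so it was counted in both. At least 2 separate matches were thus found in windows of Tnfaip3 and Nfkb2, and in 0.167% of all promoter windows.

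Other motifs were searched on both strands in the same windows. The AP-1 motif TGANTCA was found in 2 of the 8 genes (Tnfaip3 and Nfkb2) and in 7.81% of all windows. The PU.1 motif GAGGAAGT was found in 1 gene, Tnip3, and in 3.2% of windows. The palindromic SMAD motif GTCTAGAC was found in 1 gene, in the second Tnfaip3 window, and in 0.213% of windows. No member window held the CRE motif TGACGTCA, found in 1.79% of all windows. A match is a description of letters, not evidence that a factor binds.

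By mm10 position (GENCODE M21), Tnip3 is ENSMUSG00000044162 on chromosome 6, 65525313 to 65634040, plus strand, and its RefSeq start lies inside that span. Traf1 is ENSMUSG00000026875 on chromosome 2, 34941750 to 34961772, Tnf is ENSMUSG00000024401 on chromosome 17, 35199381 to 35202007, and Nfkbia is ENSMUSG00000021025 on chromosome 12, 55489410 to 55492647, all on the minus strand. All 10 genes are annotated as protein-coding.

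Levels per kilobase of merged exons put the 10 genes in order, with the limit that the transcripts in use are not known. In monoculture Nfkbia was highest at 4854 ± 330.3 normalized counts per kb. Tnf (2975 ± 372) and Tnip1 (2869 ± 239) came next and overlapped. They were followed by Tnip3 (1551 ± 8.29), Nfkb2 (1138 ± 54.3), Nfkb1 (878 ± 19.1) and Birc3 (684 ± 58.1), each apart from its neighbors. Relb (528 ± 50.3) and Tnfaip3 (522 ± 15.9) overlapped, and Traf1 was lowest (128 ± 22.7). In co-culture Tnip3 took the ninth place of the 10 at 128 ± 27.9 per kb, above Traf1 alone (11.4 ± 2.04), whereas with TGF-β it stayed in the fourth place (1106 ± 36.7) and overlapped Nfkb2. Nfkbia kept the first place in all 3 groups.

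Ratios within a library do not depend on how libraries are scaled to each other, and they show the change in the makeup of the feedback genes. The ratio of Tnip3 to Tnip1 counts was 0.158, 0.159 and 0.234 in co-culture, 1.17, 1.09 and 1.09 with TGF-β and 1.55, 1.64 and 1.84 in monoculture. These are ratios of counts, not per length, and the 3 groups did not overlap. The ratio of Tnip3 to Tnfaip3, its partner A20, was 0.343, 0.410 and 0.618 in co-culture, 3.90, 3.34 and 3.6 with TGF-β and 4.50, 4.62 and 4.36 in monoculture. All 3 groups were separate. The ratio of Traf1 to Tnf was 0.0345, 0.0284 and 0.0427 in co-culture, 0.173, 0.124 and 0.235 with TGF-β and 0.280, 0.162 and 0.270 in monoculture, and here TGF-β and monoculture overlapped. The ratio of Nfkb2 to Nfkb1 was 0.423, 0.381 and 0.424 in co-culture, 0.457, 0.446 and 0.501 with TGF-β and 0.516, 0.467 and 0.495 in monoculture, a smaller shift with co-culture lowest. Nfkbia to Nfkb1 was 0.600, 0.515 and 0.664 in co-culture, 0.834, 0.847 and 0.681 with TGF-β and 0.786, 0.718 and 0.708 in monoculture. Here co-culture was lowest, and TGF-β and monoculture overlapped. Relb to Rela was 0.246, 0.236 and 0.193 in co-culture, 0.278, 0.297 and 0.323 with TGF-β and 0.240, 0.254 and 0.263 in monoculture. Co-culture and monoculture overlapped in this ratio, and every TGF-β library lay above both.

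**Figure D3:**
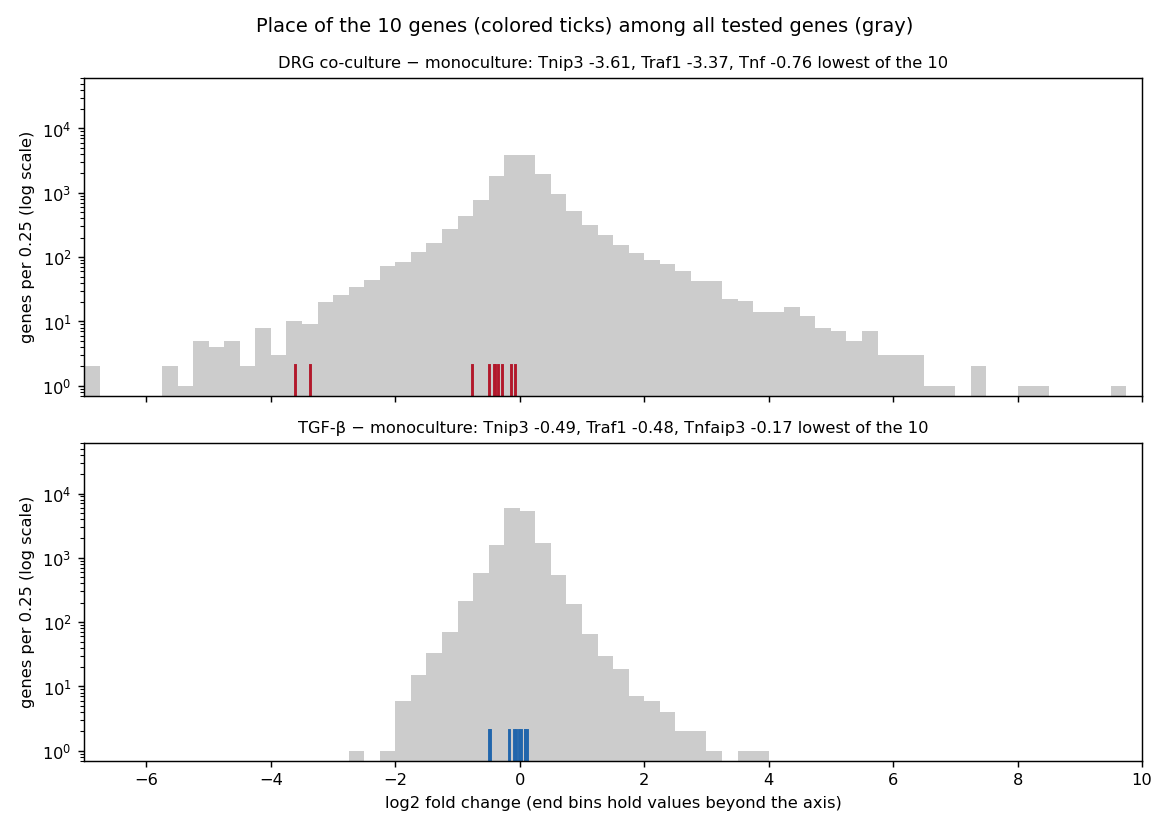
Number of tested genes (y axis, log scale) per 0.25-wide bin of log2 fold change (x axis) in co-culture against monoculture (top) and TGF-β against monoculture (bottom), with the 10 genes as colored ticks. In the top panel 2 ticks, Tnip3 and Traf1, stand in the far lower tail and 8 lie between -0.76 and -0.08. In the bottom panel the ticks run from -0.49 to 0.12.

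TGF-β at 0.02 ng/ml is the factor that the study's title links to the effect of the neurons, and with it 9 of the 10 genes did not pass the test. The exception was Tnip3, which fell to 12071 ± 400.1 with TGF-β, against 16935 ± 90.5 in monoculture (log2 fold change -0.49 ± 0.12, adjusted p = 0.0429). It was the 1 member called, with 1.39% of all tested genes called lower and 1.13% higher, and 0 members rose by limma, edgeR or DESeq2, also at an unadjusted p under 0.05. The Tnip3 call was near the threshold: it was lost in 8 of 18 alternatives, with adjusted p up to 0.138, while the fold change stayed between -0.51 and -0.47. Leaving out any 1 of the 3 TGF-β libraries, any 1 of the 3 monoculture libraries or co-culture 1 lost it. Traf1 had a similar estimate and a wider error (-0.48 ± 0.18, adjusted p = 0.197, 95% interval -0.86 to -0.10) and did not pass. The TGF-β libraries of Tnfaip3 lay below all monoculture libraries, yet the gene did not pass (-0.17 ± 0.10, adjusted p = 0.487). Groups did not overlap, with TGF-β lower, for 2 of the 10 genes, beside 9.64% of all tested genes, and with TGF-β higher for 0, beside 7.27%. For Tnf the estimate was -0.06 ± 0.14, adjusted p = 0.898, and its 95% interval of -0.35 to 0.23 does not reach the fall seen in co-culture. The other 6 ran from -0.09 ± 0.10 (Nfkb2) to 0.12 ± 0.11 (Relb), none of them called, and their intervals together reached from -0.31 to 0.37.

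The direct comparison of co-culture with TGF-β tests whether the 2 conditions differ, and 6 of the 10 genes were lower in co-culture and 0 higher, beside 11.9% of all tested genes called lower and 13.4% higher. The 0 was the same at an unadjusted p under 0.05 and with edgeR and DESeq2. This comparison uses the same co-culture and TGF-β libraries as those above, so it is not a separate replication. Tnip3 (-3.12 ± 0.12, adjusted p = 6.61e-10) and Traf1 (-2.88 ± 0.18, adjusted p = 5.45e-08) again led. Tnf was at 2862 ± 229.8 in co-culture and 4716 ± 996 with TGF-β (-0.70 ± 0.14, adjusted p = 0.00172). Relb (-0.61 ± 0.11, adjusted p = 0.00116), Tnip1 (-0.50 ± 0.08, adjusted p = 3.30e-04) and Nfkbia (-0.48 ± 0.08, adjusted p = 7.52e-04) were also lower. Nfkb2 missed the threshold (-0.26 ± 0.10, adjusted p = 0.0787), as did Tnfaip3 (-0.11 ± 0.10), Birc3 (-0.17 ± 0.10) and Nfkb1 (-0.07 ± 0.09). Groups did not overlap for 7 of the 10, all with co-culture lower, beside 19.8% of all genes that lay lower and 21.3% that lay higher. Set against monoculture, the count was also 7, all lower, beside 21.7% of all genes lower and 23.3% higher.

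Other genes of the pathway, listed by role and chosen with earlier results of these data known, moved in both directions in co-culture. Of 83 listed, 80 were tested, of which 20 were higher and 25 lower than in monoculture (median log2 fold change -0.02). This compares with 15.9% higher and 15.0% lower among all tested genes. Among the 20, Timp3 and Il1b passed the filter on low values only through co-culture, so their direction was set by it. With TGF-β, 1 of the 80 was higher and 3 were lower, beside 1.13% higher and 1.39% lower of all tested genes. These counts were 0 to 3 in each direction as single libraries were left out (0 and 0 without monoculture 2 or TGF-β 1), and DESeq2 called 5 higher and 8 lower.

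Of 14 receptors and adaptors, 6 fell and 1 rose in co-culture (median -0.12), beside 15.0% lower and 15.9% higher of all tested genes. Those that fell included Ticam1, the TRIF adaptor of Toll-like receptors 3 and 4 (-0.68 ± 0.10, adjusted p = 8.77e-05), and Cd40, the costimulatory TNF receptor family member (-0.67 ± 0.12, adjusted p = 7.53e-04). The RANK receptor gene Tnfrsf11a (-0.35 ± 0.08) and the endotoxin receptor gene Tlr4 (-0.40 ± 0.11) fell as well. The exception was Traf6, the ubiquitin ligase downstream of Toll-like receptors and RANK (0.28 ± 0.09). The TNF receptor genes Tnfrsf1a (-0.11 ± 0.08) and Tnfrsf1b (0.20 ± 0.09) did not pass. With TGF-β 0 of the 14 passed in limma or edgeR. At an unadjusted p under 0.05, 3 were lower in both, and DESeq2 called 1 lower. Shares of all genes at an unadjusted p are not given, here or below.

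The IκB kinase tier held 15 genes, of which 3 fell and 2 rose in co-culture. Among all tested genes 15.0% were lower and 15.9% higher, so these counts do not set the tier apart. Ikbkg, which encodes the regulatory subunit NEMO, had 4260.3, 4062 and 4082 normalized counts in co-culture, 5762, 6109.8 and 5724 with TGF-β and 7589, 7335 and 6886 in monoculture. The 3 groups did not overlap, and Ikbkg was called lower in co-culture against monoculture (-0.81 ± 0.07, adjusted p = 1.24e-06) and with TGF-β against monoculture (-0.31 ± 0.07, adjusted p = 0.0458). The TGF-β call was near the threshold and was lost without monoculture 2 or TGF-β 1. Ikbke, the gene of a non-canonical IκB kinase, fell (-0.55 ± 0.15). Tab2 (0.53 ± 0.08) and Map3k7 (0.31 ± 0.07), which encode the TAK1 complex that activates the IκB kinases, rose.

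The remaining Rel and IκB genes were split in direction. Of 7, 4 rose and 2 fell in co-culture (median 0.36), beside 15.9% higher and 15.0% lower of all tested genes. At an unadjusted p under 0.05 the split was 4 higher to 3 lower. Nfkbiz encodes the nuclear protein IκBζ, which is needed for a second wave of inflammatory genes. It had 5585, 3536 and 3733 normalized counts in co-culture, 2058, 1820.3 and 2352 with TGF-β and 1369, 1396 and 1931 in monoculture, with all co-culture libraries above all others (1.43 ± 0.18, adjusted p = 9.36e-05). Bcl3, another nuclear IκB, rose to 2975 ± 256 in co-culture, against 1783 ± 199.9 in monoculture (0.74 ± 0.11, adjusted p = 1.68e-04), and the subunit c-Rel gene Rel rose by 0.36 ± 0.09. Rela, the gene of p65, fell (-0.32 ± 0.09), as did the cytoplasmic inhibitor Nfkbie (-0.31 ± 0.10). With TGF-β 0 of the 7 passed in limma, edgeR or DESeq2, and at an unadjusted p under 0.05 limma and DESeq2 gave 1 higher (Nfkbiz, 0.42 ± 0.18) and edgeR 0.

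**Figure D4:**
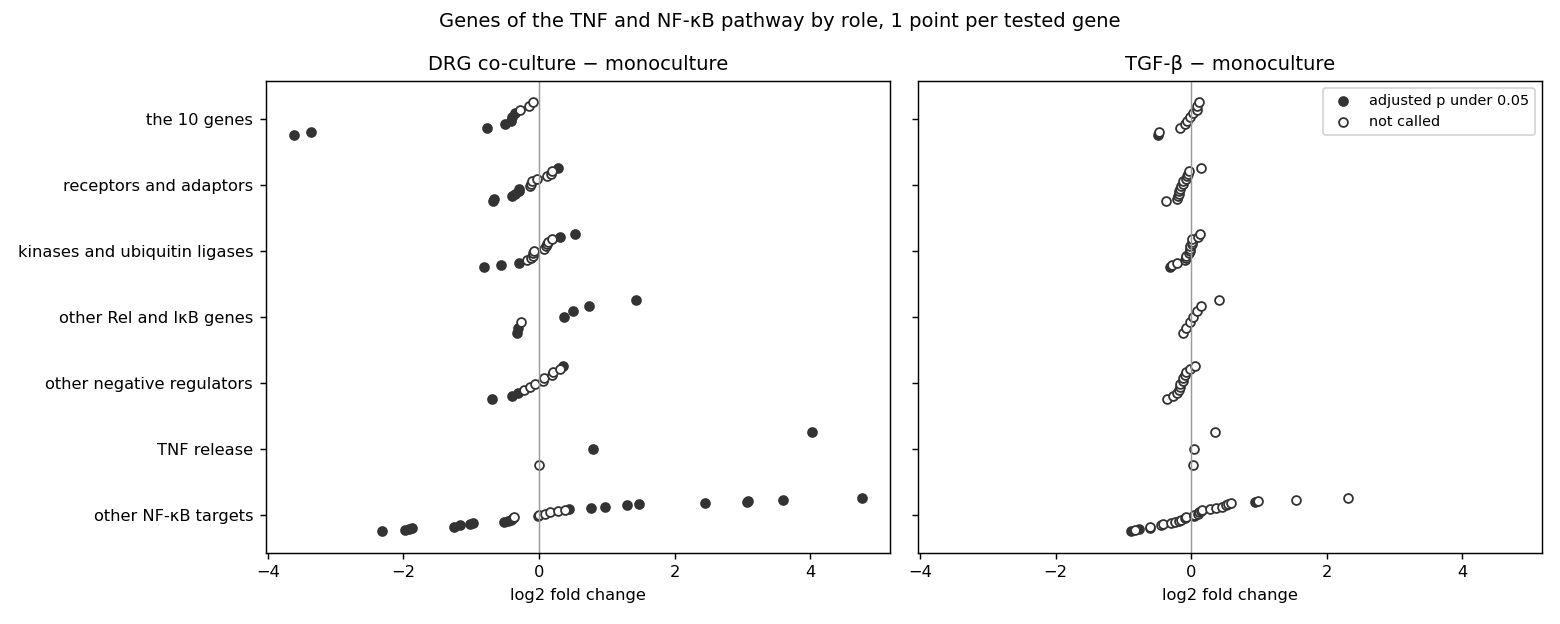
Log2 fold change (x axis) of every tested gene of 7 groups (y axis), with the 10 genes in the top row and the listed pathway genes by role below, in co-culture against monoculture (left) and TGF-β against monoculture (right). Filled points passed at adjusted p under 0.05, and vertical offsets within a row only separate the points. In the left panel the top row lies wholly below 0, whereas the NF-κB targets spread to both sides. Genes near 0 counts in monoculture, such as Timp3 and Il1b at the far right, have a place that depends on the added 10.

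Among 12 other negative regulators 3 fell and 1 rose in co-culture, beside 15.0% lower and 15.9% higher of all tested genes. Counts this small do not set the list apart. The deubiquitinases Otud7b, also called Cezanne (-0.70 ± 0.08, adjusted p = 7.19e-06), and Otulin, which removes linear chains (-0.40 ± 0.08), fell together with Tax1bp1, an adaptor of A20 (-0.31 ± 0.08). N4bp1 rose (0.36 ± 0.10). With TGF-β 0 of the 12 passed in limma or edgeR, 3 and 4 were lower at an unadjusted p under 0.05, and DESeq2 called 1 lower.

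Of the 3 genes listed for TNF release, Adam17, the protease that cuts TNF from the membrane, stood at 99.6% of its monoculture mean in co-culture and did not pass. Rhbdf2, whose product iRhom2 carries ADAM17 to the cell surface, rose to 9162 ± 738 in co-culture, against 5246 ± 357 in monoculture (0.80 ± 0.10, adjusted p = 1.85e-05). Timp3, an inhibitor of ADAM17, had 143, 145 and 237 in co-culture and 1.62, 0 and 1.55 in monoculture. Timp3 is also strongly expressed by fibroblasts, whose markers summed to more in the same libraries. It passed the filter on low values only through co-culture, so no test is given for it.

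Other target genes of NF-κB did not follow Tnf as a block. Of 29 tested of 32, 11 fell and 10 rose in co-culture (median -0.01), beside 15.0% lower and 15.9% higher of all tested genes. Of the 7 chemokine genes listed, a subgroup singled out after its values were seen, 5 fell, beside 15.0% of all tested genes. They were Ccl3 (-0.98 ± 0.11) and Ccl4 (-1.16 ± 0.13), the MIP-1 chemokines, Ccl2 (-1.01 ± 0.21), which draws monocytes, and the neutrophil attractants Cxcl1 (-2.31 ± 0.56) and Cxcl2 (-1.91 ± 0.32). Ccl2 was at 41222 ± 6362 in co-culture, 56014 ± 17822 in TGF-β cultures and 82808 ± 9527 in monoculture. Ebi3, a subunit of interleukins 27 and 35, fell (-1.25 ± 0.09, adjusted p = 1.65e-07). Ier3, an early response gene that limits cell death, rose to 2990.3 ± 139 in co-culture, against 1064 ± 44.9 in monoculture (1.48 ± 0.09, adjusted p = 2.54e-08). Marcks (0.97 ± 0.12), the prostaglandin synthase gene Ptgs2 (0.77 ± 0.19), Ccrl2 (1.29 ± 0.31) and the transcription factor gene Irf1 (0.44 ± 0.11) rose too. Vcam1, an adhesion molecule also found on fibroblasts and endothelium, had 854, 1241 and 1193 in co-culture and 141, 259 and 42.6 in monoculture (adjusted p = 0.0177). The interleukin gene Il1b had 299.7, 270.4 and 219.9 normalized counts in co-culture and 0 reads in all 3 monoculture libraries, which allows up to 3 reads per library (95% confidence, counting error only), so no fold is given. The anti-apoptotic genes Bcl2a1a and Bcl2a1b were called higher in co-culture. Their neighbor in sequence Bcl2a1d rose in co-culture (2.45 ± 0.19) and with TGF-β (0.94 ± 0.19, adjusted p = 0.0144), but how reads shared between these near-identical paralogs were assigned is not stated. With TGF-β, Gadd45b, a stress gene that restrains JNK signaling (-0.78 ± 0.15, adjusted p = 0.0131), and Il1rn, the interleukin 1 receptor antagonist (-0.89 ± 0.17, adjusted p = 0.02), were the 2 lower targets, and both were lower in co-culture too (-1.97 ± 0.15 and -1.88 ± 0.17). Both comparisons share the monoculture libraries. No listed target kept its TGF-β call without monoculture 2 or TGF-β 1.

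Set directly against TGF-β, co-culture had 21 of the 80 listed genes higher and 15 lower, beside 13.4% higher and 11.9% lower of all tested genes. Bcl3 (0.75 ± 0.11, adjusted p = 2.10e-04), Nfkbiz (1.02 ± 0.18) and Rel (0.34 ± 0.09) were higher than in TGF-β cultures, and Nfkbie was lower (-0.39 ± 0.10). Among receptors and adaptors, Cd40 (-0.55 ± 0.12) and Ticam1 (-0.31 ± 0.10) were lower, while Traf6 (0.36 ± 0.09) and Myd88, the common adaptor of Toll-like and interleukin 1 receptors (0.34 ± 0.08), were higher. In the kinase tier, Ikbkg (-0.50 ± 0.07) and Rnf31, the HOIP subunit that builds linear ubiquitin chains (-0.31 ± 0.09), were lower, and Tab2 (0.52 ± 0.08) and Chuk, the gene of IKKα (0.32 ± 0.07), were higher. Of the negative regulators, Otud7b was lower (-0.49 ± 0.08). N4bp1 (0.45 ± 0.10), the ubiquitin ligase gene Itch (0.34 ± 0.08) and Zc3h12a, which encodes the mRNA-cleaving Regnase-1 (0.47 ± 0.15), were higher. Rhbdf2 (0.77 ± 0.10) and Ier3 (1.38 ± 0.09) were higher and Ebi3 was lower, at 49.6% of its TGF-β mean.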

How the data were processed

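Sorted mouse macrophages gave 9 RNA-seq libraries, for which the labels' protocols name the SMART-Seq Stranded Kit and an input of 10 ng. The deposited table holds 1 signal value per gene and library. Dividing each column by its smallest value gave whole numbers (100% within 0.05), so the authors' signal values are whole reads over a scaling factor of each library. Build mm10 and R 3.6.1, DESeq2 1.24.0, STAR 2.7.3 and bcl2fastq 2.20 are named per the submitters' processing notes. Their roles, the counting program, strand setting and annotation are not given in the sources used here. How the authors' counting treated multi-mapping reads could change values of paralogs such as Bcl2a1d.

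The 16328 of 24607 genes that reached a value of 10 in 3 or more libraries were tested with limma 3.58.1 (trend and robust options; R 4.3.3). A pseudocount of 10 was added before taking log2, which understates changes of low genes. All 9 libraries were in 1 fit with group as factor, and p-values were adjusted by Benjamini-Hochberg over all tested genes (called at 0.05). Alternatives were pseudocounts 1 and 50, other filters, TMM scaling, edgeR 4.0.16 and DESeq2 1.42.0 on the recovered reads, 2-group fits, a replicate block and each library left out, 18 in all. The fit was tested on simulated data. The 10 members, the lists and the motifs were chosen with earlier results of these data known, and the ratios after their values were seen. From each list the text names up to 4 genes of smallest p per comparison and called genes that went against the list's majority. The 2 TNF receptor genes and the chemokines were added after their values were seen. Promoters are RefSeq's (GRCm38.p6), and positions and exon lengths are GENCODE M21's. No 2 libraries of a group agreed within sampling noise.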

Additional observations from a re-analysis of the deposited data

How the results depend on the processing

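Over 18 alternatives, the 10 genes gave 180 values for co-culture against monoculture, of which 175 kept direction and side of the threshold, 3 lost the call (Nfkb2), 2 gained it (Tnfaip3) and 0 changed sign. The number of members called lower was 6 to 8 when 1 library was left out. For co-culture against TGF-β 179 of 180 were kept and 6 members were called lower in every alternative run. The exception was Nfkb1, whose uncalled change ran from -0.12 to 0.00103 as libraries were left out. TGF-β against monoculture was the least stable. The 1 member called lower, Tnip3, became 0 without a filter on low values (adjusted p = 0.0882; more genes were then tested) and was 0 to 1 with 1 library left out. Uncalled members changed sign as libraries were left out. Their log2 fold changes ran from -0.225 to 0.0614 for Tnf, -0.0824 to 0.043 for Nfkb1 and -0.0504 to 0.104 for Birc3. Over all genes in that comparison, 185 were higher and 227 lower, against 425 and 482 with DESeq2, and 92 to 496 higher and 73 to 443 lower with 1 library left out, with the extremes without TGF-β 1 and without TGF-β 3; the cause was not tested. Libraries with the same replicate number did not deviate together in every pair (correlation -0.15 to 0.37), and not every library correlated best with its own number, so the numbers were not taken to pair the samples. With the replicate number as a block, the members called lower were 7 in co-culture and 1 with TGF-β against monoculture and 6 in co-culture against TGF-β, with no member's call changed, and over all genes 2522 higher and 2404 lower, 189 and 208, and 2088 and 1868. On the recovered reads, edgeR called 2427 higher and 2520 lower in co-culture against monoculture, 180 and 210 with TGF-β against monoculture, and 2059 and 1960 in co-culture against TGF-β. TMM scaling moved the median change of all genes by at most 0.01 (log2). The number of recovered reads of TGF-β 2 and 3, 55900627 and 46831914, limits what low genes can show.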

Other observations

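Some genes outside the circuit ran closely with Tnf or with Traf1. Over the 9 libraries, among 7909 genes of above-median level, the 5 closest to Tnf were Aprt, an enzyme of adenine salvage, Atp5d, a subunit of the mitochondrial ATP synthase, Slc25a12, a mitochondrial carrier, Tiprl, and the ribosomal protein gene Rpl10 (Pearson r 0.968 to 0.986 of log2 values). Aprt averaged 9586 normalized counts in co-culture, 15473 with TGF-β and 15246 in monoculture. The 5 closest to Traf1 were Fhl3, the phosphatase gene Ptpn22, the transcription factor gene Foxp1, Add3 and Tiam1, an activator of the GTPase Rac (r 0.994 to 0.997). Tiam1 averaged 788 in co-culture, 5105 with TGF-β and 8093 in monoculture. Ptpn22 averaged 1355 in co-culture, 5346 with TGF-β and 7782 in monoculture. The other genes near Traf1 fell less. Fhl3, the closest, averaged 5143 in co-culture, 9241 with TGF-β and 9830 in monoculture. Foxp1 averaged 5900 in co-culture and 12735 in monoculture, and Add3 4364 in co-culture and 9149 in monoculture. A high r thus does not mean an equally large fall. These correlations share the 3 groups and the scaling of the 9 libraries and are given as a description.

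Co-culture 1, the library with the most recovered reads, was the highest of its group for 6 of the 10 genes. TGF-β 1, 2 and 3 were the highest of theirs for 1, 4 and 5 genes, and monoculture 1, 2 and 3 for 4, 3 and 3.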
